A study of Mus musculus with 8 samples.

Results

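The insulin-like growth factor (IGF) genes described here are the ligand gene Igf1, the receptor genes Igf1r, Insr and Igf2r, and the binding protein genes Igfbp2 to Igfbp7. They are 10 of the 49671 genes in a table of raw counts from 8 mouse tumors, chosen by name. All 8 tumors carry the genotype HprtCre with Ewsr1-loxP and Atf1-loxP, in which Cre from the Hprt locus recombines loxP sites to fuse Ewsr1 with Atf1. None was treated with a drug, and each was frozen when the primary tumor made the animal morbid; total RNA was sequenced after ribosomal RNA depletion. The labels give 1 group of tumors, titled 1, 2L, 2R, 3, 4a, 4b, 5 and 6, and no control. They do not say what a shared number or a suffix stands for, nor whether libraries come from separate animals, so p-values measure only the spread between these libraries, which may be technical. The human counterpart of this fusion marks clear cell sarcoma. Of 10 melanocyte and clear cell sarcoma markers, 4 passed the low count filter described below and 3 had no count at all. Mitf was present in every library (30.3 to 130 CPM, counts per 1000000 counts), and Sox10 did not exceed 0.235 CPM. The 10 markers summed to 87.4 CPM in tumor 1, the lowest, and to 413 CPM in 2R, the highest.

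Igf1 and Igf2 are secreted ligands. Igf1r is a receptor tyrosine kinase that binds both ligands and signals through IRS adaptors to PI3K, AKT and mTOR. The insulin receptor Insr is its closest relative and forms hybrid receptors with it. Igf2r has no kinase: it carries mannose 6-phosphate tagged enzymes, and Igf2, to lysosomes. The binding proteins hold the ligands outside cells, and proteases such as Pappa and Pappa2 release them. IGF signaling is widely studied in sarcomas.

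Library totals ran from 4817902 to 19682149 counts. Outside mitochondrial genes and the 7 most abundant noncoding RNAs, the remaining genes held 24.9% of the counts in library 3 and 59.1% to 94.9% in the other 7. Library 3 thus stands apart, with 1197901 counts for the remaining genes. CPM values below are scaled by TMM, a factor that offsets such abundant RNAs and was 0.394 in library 3 and 0.83 to 1.36 elsewhere. Levels of different genes are compared as CPM per kb of exon. A gene was tested when every library reached 0.92 CPM for it before TMM scaling, which is 10 counts at the median depth. This left 11505 genes and 9 of the 10 IGF genes. Igfbp6 did not pass, because library 3 held 3 counts of it, or 0.623 CPM before TMM scaling.

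On the scale of mean CPM per kb, Igfbp7 stood first at 382 ± 165 (SD, n = 8), followed by Igfbp3 at 61.9 ± 47.7 and Igfbp4 at 56.5 ± 25.8. Then came Igf2r at 34.4 ± 19.9, Igfbp5 at 32.8 ± 26.0 and Igf1r at 13.8 ± 6.76 CPM per kb. Igfbp6, Igf1, Igfbp2 and Insr closed the order at 9.91 ± 8.98, 9.53 ± 5.13, 7.97 ± 6.34 and 7.13 ± 2.71 CPM per kb. Only the step from Igfbp7 to Igfbp3 was free of overlap: Igfbp7 was higher in 8 of 8 libraries. For each of the other 8 steps the ranges overlapped and at least 2 libraries showed the opposite order. Igfbp3 exceeded Igfbp4 in 4 of 8 libraries, and Igf2r exceeded Igfbp5 in 5 of 8. At 2 steps most libraries went against the order of the means: Igfbp6 exceeded Igf1 in 2 of 8, and Igfbp2 exceeded Insr in 3 of 8. The mean of Igfbp6 was 11.02 CPM with tumor 1 and 7.88 CPM without it. As background, the median of the 11495 kept genes with a known length was 5.57 CPM per kb.

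**Figure D1:**
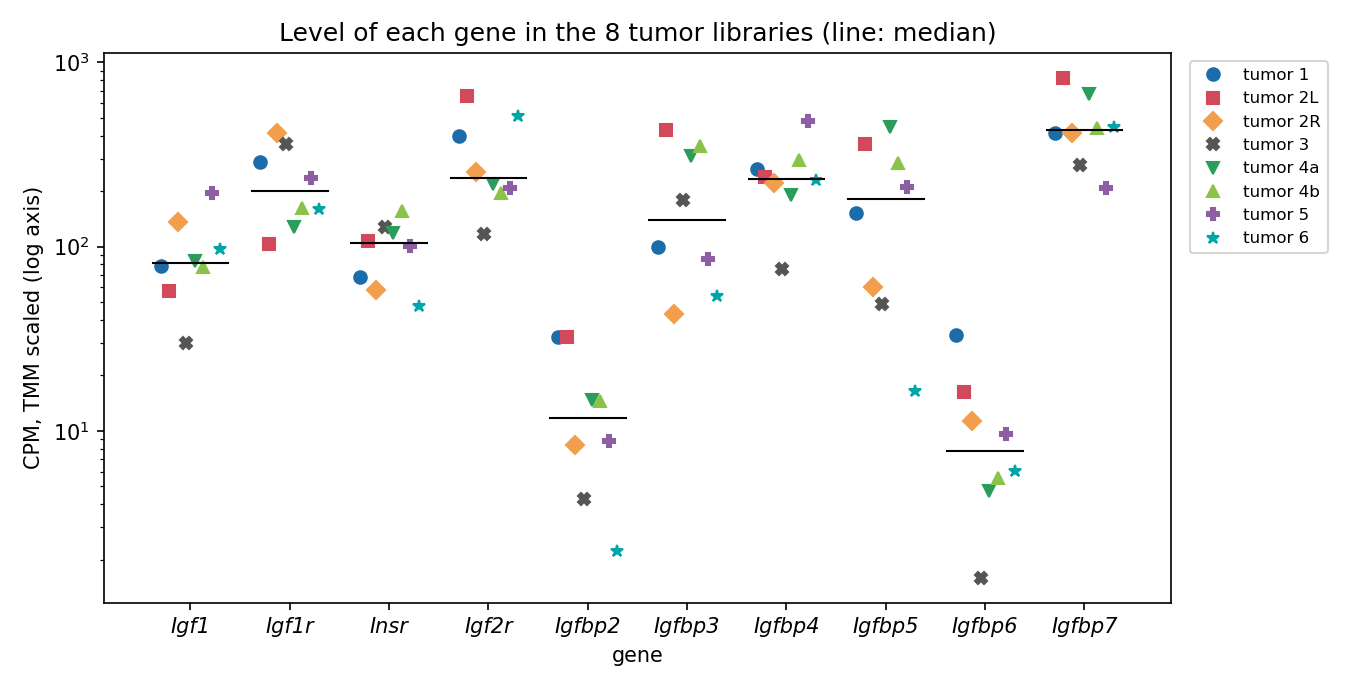
CPM (TMM scaled, log axis) of the 10 IGF genes in the 8 tumor libraries, each symbol 1 library and each line the median of a gene. Igfbp5 spreads from 16.5 CPM in tumor 6 to 444 CPM in 4a, whereas Insr stays between 47.8 and 155 CPM.

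Igf1 (ENSMUSG00000020053, mm10 chromosome 10, 87858265 to 87937042) was transcribed in every tumor. Its level ran from 29.8 CPM in library 3 through a median of 81.0 to 195 CPM in tumor 5, with a mean of 94.4 ± 50.8 CPM (SD, n = 8). The next highest tumor was 2R at 137 CPM, and 2L stood at 57.3 CPM. Tumors 1, 4a and 4b lay close together, between 77.8 and 83.2 CPM. Without library 3 the mean was 104 CPM. Igf1 is a product of fibroblasts and macrophages in many tissues. All 12 macrophage markers passed the filter, and their summed level was lowest in library 3 at 364 CPM, 1100 to 1994 CPM in 6 others and 4186 CPM in tumor 6. All 14 fibroblast and matrix markers were detected, 13 of them past the filter, with sums of 4336 CPM in library 3 and 14820 to 31300 CPM elsewhere. Tumor 5, the highest in Igf1, held the highest sum of 8 fat cell markers, 238 CPM against 20.8 to 53.7 CPM elsewhere, and 1548 CPM of 8 epithelial markers, which reached 2098 CPM in 2L. The part of these cells in the Igf1 levels was not tested. In bulk tumors, fewer cells of a type and less RNA per cell cannot be told apart.

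Of the other ligands, Igf2, the fetal growth factor, stood at 13.3 ± 9.75 CPM (SD, n = 8), from 0.691 CPM in tumor 6 to 24.0 CPM in tumor 1. Per kb, the ratio of Igf1 to Igf2 was 1.08 in 3, where both genes were about level, and 1.9 to 4.95 in 1, 2L, 2R and 5. It was 12.2 in 4a, 14.5 in 4b and 81 in tumor 6. Igf2 did not pass the low count filter, and the ratio in tumor 6 rests on its 0.691 CPM there. The insulin genes Ins1 and Ins2 had no count in any library, where 3 counts per library would be 0.118 to 1.60 CPM. Ghr, the growth hormone receptor that drives Igf1 in liver, was present at 42.2 ± 22.2 CPM, highest in 2L at 69.4 and lowest in 6 at 8.41 CPM.

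Igf1r (ENSMUSG00000005533, chromosome 7, 67952827 to 68233668) ranged from 103 CPM in 2L through a median of 200 to 413 CPM in 2R. Among the libraries, 2R, 3, 1 and 5 were high, with 413, 361, 289 and 236 CPM. Tumors 4b, 6, 4a and 2L were lower, at 163, 161, 127 and 103 CPM. These groups, named after the values were seen, do not overlap. The same 4 high libraries held the smallest shares of remaining genes, 24.9% to 64.2%, against 78.7% to 94.9% in the others. Over the 6 title numbers, with same-number libraries averaged, log2 CPM of Igf1r ran against that share with r = -0.909 (two-sided exact permutation p = 0.00694, adjusted p = 0.0694 over the 10 IGF genes). The rank correlation rho was -0.886 (exact permutation p = 0.0333, adjusted p = 0.333). The r was -0.896 without numbers 3 and 6, and 0 of the 10 genes passed the correction. Scaled by RLE size factors the r was -0.916, and by totals without the abundant RNAs -0.9 (exact permutation, adjusted p = 0.0694 and 0.0556). With CPM not scaled by TMM the r was 0.376 (exact permutation p = 0.463, adjusted p = 0.535), and library 3 moved from rank 2 to rank 7 of the 8 libraries. The part of library composition in the Igf1r levels was not tested further.

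With TMM scaling, Insr (ENSMUSG00000005534, chromosome 8, 3122061 to 3279617) varied least of the 3 receptors. It ran from 47.8 CPM in tumor 6 through a median of 104 to 155 CPM in 4b. Tumors 6, 2R and 1 were low, at 47.8, 57.8 and 68.3 CPM, and the other 5 lay between 101 and 155 CPM. Without TMM scaling library 3 moved from rank 2 to rank 7 for Insr too. The mean and SD were then 101 and 51.9 CPM for Insr and 214 and 75.4 CPM for Igf1r. Relative to the mean, Insr thus varied more than Igf1r under that scaling. Per kb, Igf1r exceeded Insr by 5.85 times in 2R, 3.47 times in 1, 2.75 times in 6, 2.3 times in 3 and 1.92 times in 5. In 2L, 4a and 4b the ratio of Igf1r to Insr was 0.78, 0.883 and 0.861, so Insr was the more abundant of the pair there. A related receptor, Insrr, which is not a receptor for insulin or IGF, stood at 14.84 ± 11.04 CPM and was lowest in 2L (3.13 CPM) and highest in 2R (30.8 CPM).

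Igf2r (ENSMUSG00000023830, chromosome 17, 12682406 to 12769664) was the most abundant receptor per kb in 7 of 8 libraries, the exception being library 3. It ran from 118 CPM in 3 through a median of 236 to 655 CPM in 2L. Tumors 2L, 6 and 1 were high, at 655, 513 and 398 CPM, and the other 5 lay between 118 and 254 CPM. Per kb, Igf2r exceeded Igf1r by 11.5 times in 2L and 5.76 times in 6, while in 3 the ratio was 0.589. Igf2r is imprinted, and the antisense transcript Airn, which silences one allele, starts within it. Airn stood at 8.49 ± 2.84 CPM (SD, n = 8), and 0 of its exon bases overlap those of Igf2r.

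**Figure D2:**
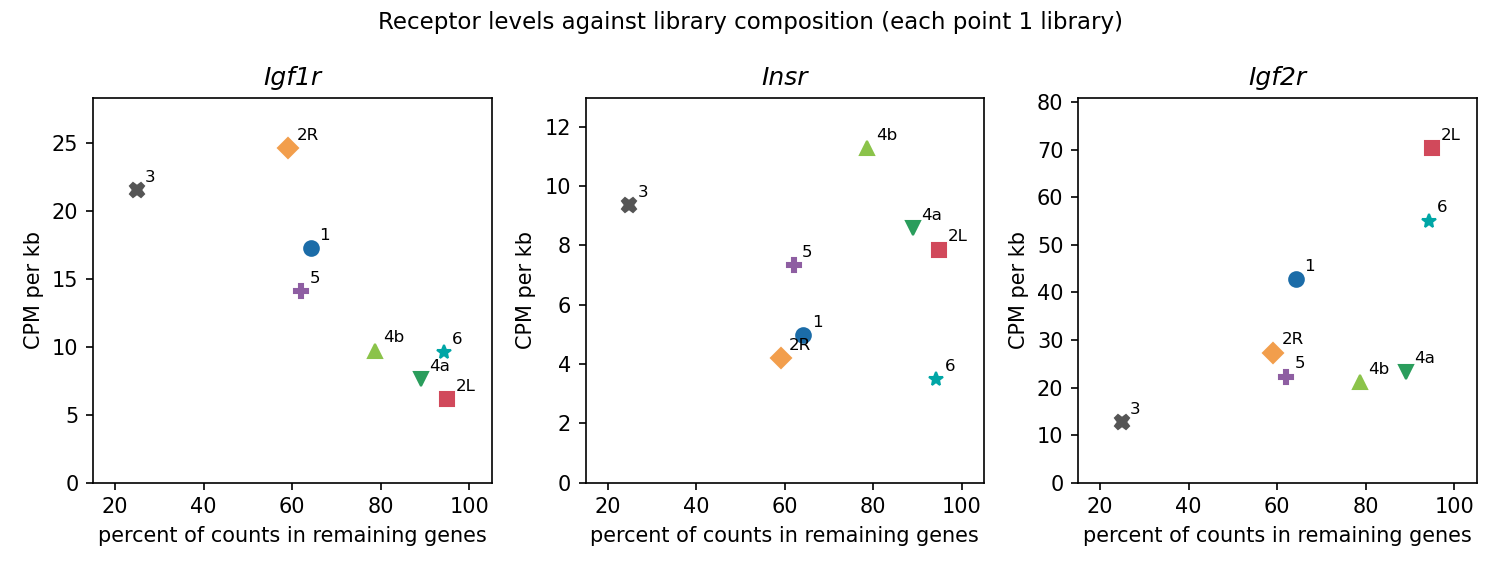
CPM per kb of Igf1r, Insr and Igf2r (vertical axes) against the percent of counts held by genes other than mitochondrial and the most abundant noncoding RNAs, each point 1 library. Igf1r is highest in 2R and 3, which hold 59.1% and 24.9%, and Igf2r is highest in 2L and 6, which hold 94.9% and 94.2%.

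The promoters were searched for sites of the CREB and ATF family, since the fusion carries the DNA-binding part of Atf1. RefSeq windows (build GRCm38.p6, the assembly mm10 stands for) from 250 bases before to 50 after a start site were found for 9 of the 10 genes, all but Insr, with a second window for Igfbp2. The RefSeq start minus the GENCODE gene start was 2846 bases for Igf1 and 884 for the second Igfbp2 window. It was -570 for Igf1r and -176 for Igfbp6, so the windows named here miss the GENCODE start. The full cyclic AMP response element TGACGTCA was in none of these 10 windows, against 1.79% of all 32851 promoters. The shorter core TGACG, on either strand, was in 1 gene, Igf2r, which held it 3 times; 20.8% of all promoters held it. The E-box CACGTG was in Igf2r, where 2 copies overlap a core, and in Igfbp2 (7.15% of all promoters). TATAAA, on either strand, was in Igfbp4 and Igfbp6 (13.6% of all). The Igf2r window is shown for its cores and E-boxes (capitals), 5′ to 3′ on the strand of the gene (chr17:12769657-12769956, minus strand). Those of Igfbp3 (chr11:7213874-7214173, minus strand) and Igfbp5 (chr1:72874816-72875115, minus strand) are shown because these genes differed most between 2L and 2R, and they hold none of the 4 motifs.
Igf2r: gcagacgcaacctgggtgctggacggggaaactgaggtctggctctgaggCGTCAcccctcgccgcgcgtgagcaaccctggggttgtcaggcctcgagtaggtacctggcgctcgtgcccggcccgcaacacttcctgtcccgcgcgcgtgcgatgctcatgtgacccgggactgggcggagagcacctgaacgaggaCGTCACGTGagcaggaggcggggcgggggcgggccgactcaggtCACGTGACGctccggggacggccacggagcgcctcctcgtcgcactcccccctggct
Igfbp3: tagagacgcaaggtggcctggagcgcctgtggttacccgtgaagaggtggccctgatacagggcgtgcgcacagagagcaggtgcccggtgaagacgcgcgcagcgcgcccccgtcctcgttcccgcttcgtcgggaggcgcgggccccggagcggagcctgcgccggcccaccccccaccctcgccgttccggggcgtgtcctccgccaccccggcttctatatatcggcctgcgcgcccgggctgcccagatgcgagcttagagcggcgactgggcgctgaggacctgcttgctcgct
Igfbp5: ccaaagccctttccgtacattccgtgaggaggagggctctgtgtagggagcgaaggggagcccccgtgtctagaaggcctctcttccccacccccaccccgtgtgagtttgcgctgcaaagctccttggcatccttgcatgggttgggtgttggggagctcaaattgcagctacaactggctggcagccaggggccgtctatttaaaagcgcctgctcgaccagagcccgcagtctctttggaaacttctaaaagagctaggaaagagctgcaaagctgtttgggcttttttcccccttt
A match of letters describes the window only, and no binding was measured.

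Among the binding protein genes, Igfbp7 (ENSMUSG00000036256, chromosome 5, 77349240 to 77408041) led in every library. Its product binds IGFs weakly and is known from vessel walls. It ran from 208 CPM in tumor 5 through a median of 427 to 822 CPM in 2L, with 4a next at 672 CPM. The other 5 lay between 278 and 446 CPM. Of the summed CPM per kb of Igfbp1 to Igfbp7, Igfbp7 held 69.0% ± 10.8 (SD, n = 8), from 48.2% in 5 to 82.4% in 6. It led the sum in 8 of 8 libraries per kb and in 7 of 8 by CPM without length scaling, where Igfbp4 led in tumor 5. On the opposite strand, exons of Polr2b share 85 bases with Igfbp7 (7.03% of its exon length), and since strand handling is not stated, reads there could be assigned to either.

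**Figure D3:**
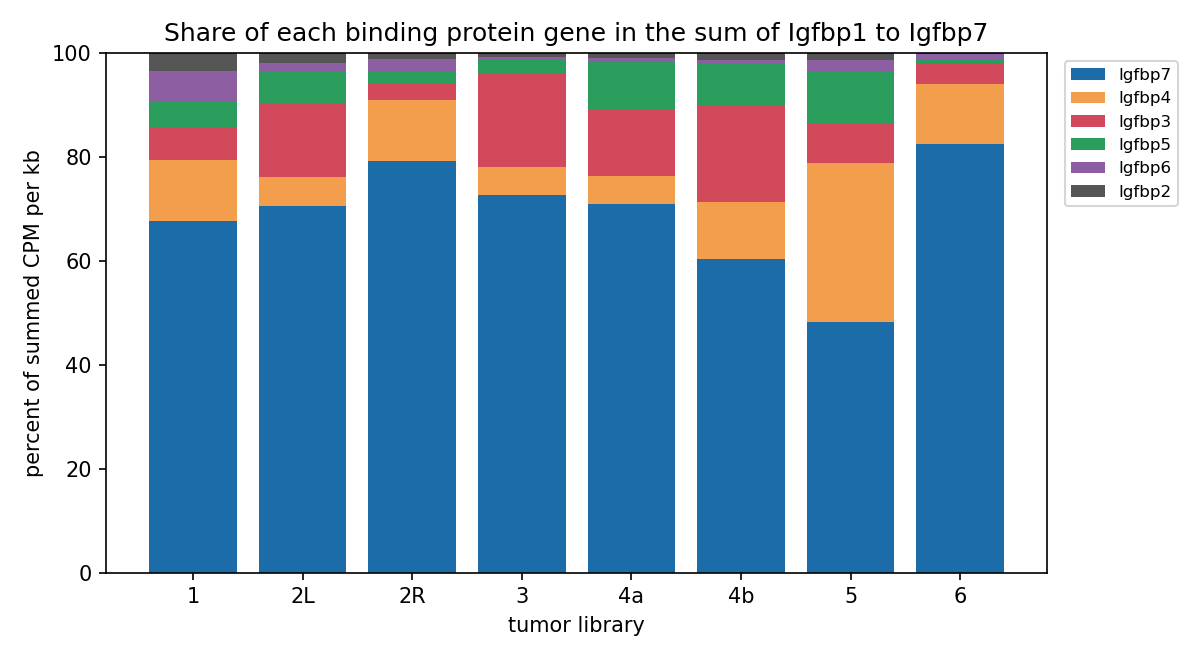
Percent of the summed CPM per kb of Igfbp1 to Igfbp7 held by each binding protein gene in each tumor library (Igfbp1, at most 0.0104%, is too small to draw). Igfbp7 is the largest part in all 8 bars, and Igfbp4 is widest in tumor 5, at 30.6%.

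The second place in the sum per kb was divided evenly. Igfbp3 held it in 2L, 3, 4a and 4b, and Igfbp4 held it in 1, 2R, 5 and 6. The share of Igfbp3 was 12.6% to 18.6% in the former and 3.19% to 7.68% in the latter. The sum of all 7 genes was highest in 2L, at 962 CPM per kb, and lowest in 3, at 316 CPM per kb. Relative to Igf1 per kb it was 166 times as high in 2L and 18.1 times in tumor 5, where Igf1 was highest. Igfbp7, whose product binds IGFs weakly, held 70.6% of that sum in 2L and 48.2% in 5.

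Igfbp3 (ENSMUSG00000020427, chromosome 11, 7206086 to 7213923) encodes the main carrier of IGFs in blood. It was high in 2L, 4b and 4a, at 428, 351 and 310 CPM, and intermediate in 3, at 179 CPM. Tumors 1, 5, 6 and 2R stood at 99.1, 85.7, 54.0 and 42.8 CPM. In the circulation Igfbp3 forms a complex with Igfals, which did not exceed 0.316 CPM. The genes most like Igfbp3 in log2 CPM over the 8 libraries were Slc35e4 (r = 0.961, rho = 0.905) and the endothelial gene Vwf (r = 0.957, rho = 0.952). Insr was most like Nos3, the endothelial nitric oxide synthase gene (r = 0.986, rho = 0.976), and Tie1, an endothelial receptor gene (r = 0.981, rho = 0.952). These likenesses are descriptions, the highest among all kept protein-coding genes, and the libraries share depth and composition.

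Igfbp5 (ENSMUSG00000026185, chromosome 1, 72857932 to 72874884), whose product binds matrix, had the widest fold range of the 10 genes. It ran from 16.5 CPM in tumor 6 through a median of 181 to 444 CPM in 4a, a 26.8-fold range. Tumors 2L, 4b and 5 followed 4a, at 359, 284 and 210 CPM, while 1, 2R, 3 and 6 stood at 151, 60.3, 49.0 and 16.5 CPM. Its SD of log2 CPM, 1.65, lay at the 98.1st percentile of all kept genes, whose median was 0.513. The genes most like it were Pdgfrb, a receptor gene of pericytes and fibroblasts (r = 0.964, rho = 0.905), and Arih2 (r = 0.964, rho = 0.952).

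Vessel markers were given for the same libraries. All 13 endothelial markers passed the filter, with a mean log2 CPM of 5.59 in 2L, 5.83 in 4a and 5.89 in 4b, against 4.04 to 5.32 in the other 5. Their summed level did not follow this order: it was highest in 2R, at 1779 CPM, and lowest in tumor 1, at 476 CPM. Of 11 smooth muscle and pericyte markers 10 passed, with a mean log2 CPM of 5.15 to 5.97 in 2L, 4a, 4b and 5 and 3.71 to 4.41 in the other 4, and sums of 322 to 1210 CPM. None of the markers of either list was at 0 in all libraries. The part of vessel cells in the levels of Igfbp3, Igfbp5 and Insr was not tested.

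Igfbp4 (ENSMUSG00000017493, chromosome 11, 99041244 to 99054392) encodes an inhibitory carrier cleaved by Pappa. It ran from 75.6 CPM in 3 through a median of 234 to 482 CPM in tumor 5, and the other 6 lay between 191 and 293 CPM. Without library 3 the mean was 274 CPM, against 250 ± 114 CPM with it (SD, n = 8).

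Igfbp2 (ENSMUSG00000039323, chromosome 1, 72824503 to 72852474) lies next to Igfbp5 and encodes a carrier that can bind integrins. Tumors 1 and 2L stood at 32.3 and 32.4 CPM, 4a and 4b at 14.8 and 14.6 CPM, 5 and 2R at 8.85 and 8.41 CPM, 3 at 4.26 CPM and 6 at 2.24 CPM. Per kb it reached 17.5 in both 1 and 2L, above Igf1 there, and 1.21 in tumor 6. The value of library 3 rests on 8 counts (95% Poisson interval 1.84 to 8.4 CPM, counting error only). Igfbp6 (ENSMUSG00000023046, chromosome 15, 102144362 to 102149511) encodes a carrier that prefers Igf2. It ran from 1.6 CPM in 3, from 3 counts (95% Poisson interval 0.33 to 4.67 CPM), through a median of 7.82 to 33.0 CPM in tumor 1. Tumor 1 was thus highest in Igfbp6, level with 2L in Igfbp2, and highest in Igf2 and in the related gene Igfbpl1, at 21.7 CPM. Igfbp1, mostly a liver product, did not exceed 0.124 CPM.

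Libraries with the same title number were compared as 1 library against 1, without a test. From 2L to 2R, 6 of the 9 IGF genes that passed the filter and averaged at least 5 CPM differed at least 2-fold, against 16.6% of 10542 genes held to the same rule. Between 4a and 4b, 0 of 9 did, against 3.94% of 10360 genes. Higher in 2L were Igfbp3, Igfbp5, Igfbp2 and Igf2r, with log2 ratios of 3.32, 2.57, 1.93 and 1.36. Lower in 2L were Igf1r and Igf1, with log2 ratios of -2.01 and -1.25. Of the genes past 2-fold Igf1 was nearest to it, at -1.25. Igfbp7 fell just short, with a log2 ratio of 0.996. Insr and Igfbp4 had log2 ratios of 0.90 and 0.10, and Igfbp6, which was not counted, 0.52. Between 4a and 4b the log2 ratios of the 10 genes lay between -0.62 for Igfbp4 and 0.65 for Igfbp5.

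**Figure D4:**
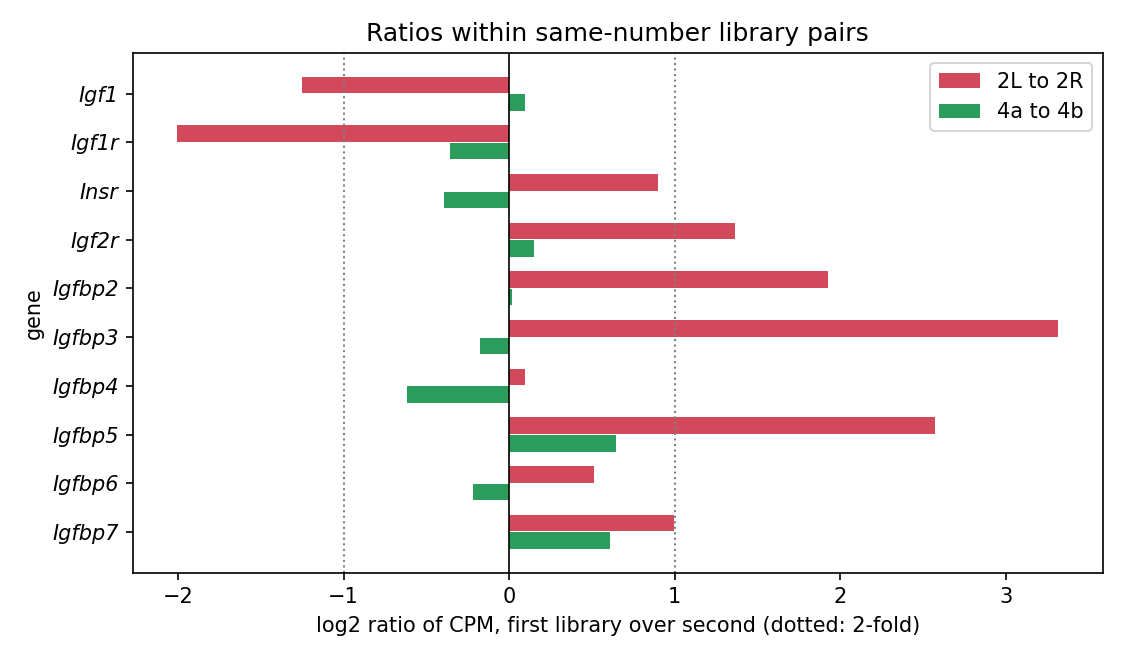
Log2 ratio of CPM (horizontal axis) of each IGF gene for 2L over 2R and for 4a over 4b, each bar 1 library against 1, with dotted lines at 2-fold. Igfbp3 reaches 3.32 and Igf1r -2.01 between 2L and 2R, while all bars of 4a to 4b stay inside the dotted lines.

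Other properties moved with the contrast of 2L and 2R. The share of remaining genes was 94.9% for 2L and 59.1% for 2R, against 89.0% for 4a and 78.7% for 4b. The summed level of 10 skeletal muscle markers, 2 of them past the filter, was 21610 CPM in 2L and 125 CPM in 2R, and 45.3 and 15.6 CPM in the 4a and 4b libraries. Library 3 held 6822 CPM of them, and the other 3 libraries 18.6 to 65.6 CPM. The sum of 8 bone and cartilage markers was 4312 CPM in 2R and 765 CPM in 2L. The sum of 8 epithelial markers, 2 of them past the filter, was 2098 CPM in 2L and 85.2 CPM in 2R. The mean log2 CPM of the smooth muscle and pericyte markers was 5.97 in 2L and 3.71 in 2R, and that of the endothelial markers 5.59 and 4.37. As sums, the smooth muscle and pericyte markers held 1210 CPM in 2L and 606 CPM in 2R. The endothelial sum went the other way, with 1025 CPM in 2L and 1779 CPM in 2R. The part of these properties in the ratios of the IGF genes was not tested. With totals taken without the abundant RNAs, the count was again 6 of 9 (17% of all genes), and with RLE size factors it was 7 of 9 (16.5%), Igfbp7 passing at 1.003. With library totals alone, which shift the median log2 ratio of all genes to 0.65, 7 of 9 passed, against 29.5% of 10607 genes. Igf1 then stood at -0.59 and no longer passed, and Igf1r kept its direction at -1.34, while Insr (1.56) and Igfbp7 (1.66) passed. Under that scaling 2890 genes were at least 2-fold higher and 237 at least 2-fold lower in 2L, against 994 and 758 with TMM. From 4a to 4b, 0 of 9 passed under RLE size factors, library totals alone and totals without the abundant RNAs (3.91%, 4.89% and 4.2% of all genes). At 1.5-fold, 8 of 9 differed from 2L to 2R (34.5% of all genes) and 3 of 9 from 4a to 4b (17.8%). At 3-fold the counts were 4 of 9 (7.4%) and 0 of 9 (0.656%); both thresholds were chosen after seeing the data.

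The 6 title numbers were then compared with the quasi-likelihood test of edgeR, which called 0 of 9 IGF genes and 0% of 11505 genes (smallest adjusted p = 0.0902). In that test the spread within a number comes from 2L with 2R and 4a with 4b. By edgeR the unadjusted p was under 0.05 for 2813 genes (24.5%). Igfbp4 was the only IGF gene among them, and its Benjamini-Hochberg adjusted p was 0.18. Adjusted p-values of the other 8 ran from 0.225 for Igfbp2 to 0.716 for Igf1r. The DESeq2 likelihood ratio test called 3 of 9, Igfbp5 (adjusted p = 0.00243), Igfbp2 (adjusted p = 0.00562) and Igfbp4 (adjusted p = 0.019), against 20.7% of all genes. With 2R left out the spread comes from 4a and 4b alone, and edgeR called 9 of 9 (39.3% of all genes). Without 2L it called 8 of 9, all but Igfbp7 (38.7% of all genes). Without the low count filter it called 6 of 10, namely Igf1, Igf2r, Igfbp2, Igfbp4, Igfbp5 and Igfbp6 (20.6% of 30321 genes).

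The wider pathway was present at the RNA level, with 44 of 56 listed genes past the filter. By edgeR 0 of 44 differed among the title numbers, 14 of them at an unadjusted p under 0.05, and DESeq2 called 15 of 44. Over all genes the shares were 24.5% at an unadjusted p under 0.05 by edgeR and 20.7% called by DESeq2. Proteases of binding proteins and their inhibitors made up 7 of those 14 genes, from 8 tested, and 7 of the 15 DESeq2 calls. This count was picked out after it was seen, and some marker lists had shares as large, such as 4 of 4 tested fat cell genes by either measure. Of the 12 macrophage genes, DESeq2 called 10, and 7 had an unadjusted p under 0.05 by edgeR. Htra1, a secreted protease that cleaves binding proteins, ran from 32.0 CPM in 3 to 453 CPM in 6. Pappa, which cleaves Igfbp4, ran from 2.49 CPM in 2R to 65.5 CPM in 3, where the TMM factor was lowest. Pappa2, which cleaves Igfbp3 and Igfbp5, ran from 21.8 CPM in 3 to 272 CPM in 4b. Stc1, an inhibitor of Pappa, was highest in 4b as well, at 146 CPM. Adamts1 and Timp1 stood at 326 ± 113 and 43.9 ± 25.4 CPM (SD, n = 8).

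Downstream of the receptors, Irs2 was the most abundant adaptor per kb (30.6 ± 8.33 CPM per kb, SD, n = 8), ahead of Grb2 and Gab1 at 12.4 ± 1.77 and 9.84 ± 1.69 CPM per kb. The adaptors Grb10 and Grb14, which dampen receptor signaling, varied most among the tested adaptors, at 16.2 to 76.7 and 6.75 to 62.3 CPM. Of the 16 PI3K, AKT and mTOR genes, all passed the filter and 1 had an unadjusted p under 0.05 by edgeR, against 24.5% of all genes. Akt1 and Pik3r1 stood at 41.7 ± 14.0 and 19.01 ± 10.4 CPM per kb. With TMM scaling, Akt1 and Pik3r1 were highest in library 3, at 306 and 425 CPM. That library had the lowest TMM factor, 0.394, and its rank for these genes without TMM scaling was not tested. Pik3cb ranged from 6.75 CPM in 1 to 38.7 CPM in 2L. The SD of log2 CPM was 0.845 for Pik3cb, the most variable of the 16, and 0.631 to 1.65 for the 6 binding protein genes.

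Genes of the mannose 6-phosphate route that Igf2r serves were abundant, with 8 of 8 past the filter. Lamp1, Ctsb and Ctsd stood at 208 ± 90.3, 179 ± 98.2 and 99.7 ± 41.2 CPM per kb (SD, n = 8). Ctsb and Lamp1 were highest in tumor 6, at 1911 and 927 CPM, and Ctsl was highest in 2R, at 684 CPM, and lowest in 3, at 43.1 CPM. Tumor 6 also held the highest macrophage sum, and macrophages are rich in lysosomes; the part of these cells was not tested. H19, a noncoding RNA next to Igf2, ranged from 1.56 CPM in 2R to 101 CPM in tumor 5.

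Of 10 relations over the 6 title numbers, 0 passed the correction. Igfbp3 ran against the hypoxia score (mean log2 CPM of 10 hypoxia genes) with r = -0.848 (two-sided exact permutation p = 0.0306, adjusted p = 0.284). Its rho was -0.771 (exact permutation p = 0.103, adjusted p = 0.515). The r was -0.795 without numbers 4 and 6, and 0.027 with CPM not scaled by TMM. It was -0.867 with RLE size factors and -0.821 with totals taken without the abundant RNAs (exact permutation, adjusted p = 0.236 and 0.215). Igfbp5 with the fibroblast and matrix score had a rho of 0.886 (exact permutation p = 0.0333, adjusted p = 0.333). The corresponding r was 0.679 (exact permutation p = 0.129, adjusted p = 0.292) and 0.822 without numbers 3 and 6. Scored by the median of the list, r fell to 0.227 and rho to 0.257 (exact permutation p = 0.658 for each). The neighbors Igfbp2 and Igfbp5 were related with r = 0.808 (exact permutation p = 0.0569, adjusted p = 0.284), or 0.796 without numbers 1 and 6. Their rho was 0.543 (exact permutation p = 0.297, adjusted p = 0.698). Igf1 with the fibroblast and matrix score had an r of 0.8 (exact permutation p = 0.0931, adjusted p = 0.292) and a rho of 0.429 (exact permutation p = 0.419, adjusted p = 0.698). That r was -0.582 without numbers 3 and 5, so with this score it rests on those. With the median of the list in place of its mean, r was 0.946 (exact permutation, adjusted p = 0.0417), and 0.74 without numbers 3 and 5. Igf1 with the macrophage score had an r of 0.625 and a rho of 0.657 (exact permutation p = 0.146 and 0.175, adjusted p = 0.292 and 0.583), and r = -0.068 without library 3, although r was 0.97 without numbers 3 and 5.

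The remaining 5 relations were weaker, with r between -0.475 and 0.207. They were Igf1 with Igf1r (r = -0.475, rho = -0.486), Igf1r with Insr (r = 0.207, rho = -0.029), Igf1r with Igf2r (r = -0.45, rho = -0.371), Igfbp7 with the endothelial score (r = -0.033, rho = 0.086) and Igfbp4 with Pappa (r = -0.39, rho = 0.086). Their exact permutation p ran from 0.328 to 0.939 for r, with adjusted p from 0.521 to 0.939. Without the 2 numbers furthest from the median the r were -0.409, 0.571, -0.455, 0.72 and 0.899, so the last 2 changed sign. Igfbp4 with Pappa had r = 0.863 without library 3.

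The nearest genes of the other members over the 8 libraries are given as descriptions. Igf1 was most like Borcs7 and Kbtbd3 (r = 0.978 and 0.968), Igf1r like Nek8 and the nuclear receptor gene Nr4a2 (r = 0.943 and 0.939), and Igf2r like Rab3gap1 and Lynx1 (r = 0.979 and 0.968). Igfbp2 was most like Pelo and Tmem119 (r = 0.988 and 0.968), and Igfbp4 like Clpx and Phf20 (r = 0.968 and 0.964). Igfbp6 was most like Pdcd2l and Slc7a2 (r = 0.974 and 0.969), and Igfbp7 like Flvcr1 and Galnt10 (r = 0.961 and 0.951). The rho of these 14 genes with their members lay between 0.833 and 1.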

How the data were processed

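For the 8 libraries the authors deposited raw counts per gene in a single table. The submitters' processing notes name mm10 and the tools RSEM, featureCounts, cutadapt and STAR 2.7.5a; their order and strand handling are not given in the sources used here. GENCODE M21 named 49412 of 49671 identifiers (99.48%) and gave positions and exon lengths. Columns were matched to tumors by the header each label names.

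Libraries were scaled by TMM and tested with edgeR 4.0.16 under R 4.3.3 (prior count 2 for log2 CPM). The filter was filterByExpr for 1 group, 0.92 CPM in each library before TMM scaling. Robust quasi-likelihood F-tests compared the 6 title numbers with 2 residual degrees of freedom, adjusted after Benjamini and Hochberg at 0.05 over all genes; DESeq2 1.42.0 was an alternative. The test was checked on simulated data. Noncoding RNAs above 1% of any library (7) and 37 mitochondrial genes were the abundant class. Title numbers are not said to mark animals. List scores are mean log2 CPM of members past the filter. Exact permutation tests used Python 3.11.15.

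All 10 members are named. Pathway genes were named by a rule: the 3 highest per kb and 2 most variable of each list; Igf2, Igfbp1, Igfbpl1, Igfals and Pappa2 were added after values were seen. A gene that the rule names is not reported here. For each member the 2 protein-coding genes of highest r are named. Members and lists were chosen with earlier results of these data known. Alternatives comprised scaling, filter, tool, list medians and leaving out each library. The hypoxia list matched 11 of 12 genes.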

Additional observations from a re-analysis of the deposited data

Results flagged for a closer look

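Igfbp6 in tumor 1 stood at 33.0 CPM, and the next highest library, 2L, at 16.3 CPM. The gap was 0.532 of the whole range over the 8 libraries, above Dixon's 95% critical value for 8 samples. For independent values with a normal spread, chance flags about 1 in 20 groups, and 10 genes were examined. The rule was applied to CPM without logs. On log2 CPM the gap is a smaller part of the range, with 5.05 in tumor 1, 4.04 in 2L and 0.795 in library 3, the lowest. The mean of Igfbp6 was 11.02 CPM with tumor 1 and 7.88 CPM without it.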

How the results depend on the processing

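No paired analysis was possible because the labels give 1 group, so no numbers are shared between groups. Called among the title numbers were 2383 genes by DESeq2 and 6260 by edgeR without a low count filter, where 6 of 10 IGF genes were called (20.6% of all genes); leaving out each library gave 0 to 4548, and 0 for every library other than 2L and 2R. Without 2L or 2R only 4a and 4b set the spread; the cause of the other changes was not tested. With RLE size factors, a mean CPM filter of 5 and a prior that is not robust, edgeR called 0. The threshold of 1.5-fold, chosen after seeing the data, called 3 of 9 IGF genes between 4a and 4b (17.8% of all genes) and 8 of 9 between 2L and 2R (34.5%). The relation of each member with the remaining share was also added after seeing the data. Without TMM scaling the median log2 ratio of all genes was 0.65 from 2L to 2R and 0.142 from 4a to 4b. With list medians, r of Igf1 with the fibroblast and matrix score was 0.946 and of Igfbp3 with hypoxia -0.928 (exact permutation, adjusted p = 0.0417 each). By the same medians, r was 0.227 for Igfbp5 with matrix, 0.504 for Igf1 with macrophage and -0.405 for Igfbp7 with endothelial. None of these passed (exact permutation, adjusted p = 0.683, 0.561 and 0.561). Without TMM scaling, r of Igfbp5 with the matrix score was 0.757 (exact permutation, adjusted p = 0.0417), and the sign turned for Igf1 with Igf1r (0.643), Igf1r with Igf2r (0.684), Igfbp7 with endothelial score (0.605) and Igfbp3 with hypoxia (0.027). Leaving out each library, r ranged from -0.068 to 0.889 for Igf1 with macrophage, 0.234 to 0.84 for Igf1 with matrix, -0.76 to 0.23 for Igf1 with Igf1r, -0.215 to 0.365 for Igf1r with Insr, -0.667 to 0.117 for Igf1r with Igf2r and -0.195 to 0.325 for Igfbp7 with endothelial. The same ranges were -0.938 to -0.75 for Igfbp3 with hypoxia, 0.562 to 0.95 for Igfbp5 with matrix, -0.842 to 0.863 for Igfbp4 with Pappa and 0.558 to 0.922 for Igfbp2 with Igfbp5. Library 3 has 1197901 counts outside the abundant RNAs, which limits its values of Igfbp2 and Igfbp6.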
